A study of Mus musculus with 16 samples.

Results

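Fibroblast growth factors (FGFs) are secreted ligands that bind receptor tyrosine kinases, the FGF receptors (FGFRs), together with heparan sulphate on the cell surface. The occupied receptor signals through the adaptor FRS2 and the RAS-ERK cascade, which switches on ETV transcription factors and the SPRY and DUSP feedback inhibitors. In the embryo and in embryonic stem (ES) cells this pathway drives the exit from pluripotency and early neural induction, and in stroma the ligands FGF7 and FGF10 act on neighbouring epithelium through a splice form of FGFR2. The genes described here are 6 ligands (FGF2, FGF5, FGF7, FGF8, FGF10 and FGF15) and 4 receptors (FGFR1, FGFR2, FGFR3 and FGFR4), chosen as a gene family. They are 10 of the 30854 target names on the array and were matched by name to 17 probes.

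Expression was measured at day 7 with Illumina MouseWG-6 v2.0 BeadChips in ES/PA6 co-cultures, in which mouse ES cells grew on a monolayer of PA6 cells, and in PA6 mono-cultures, all in serum-free N2B27 medium. PA6 is a stromal line derived from mouse bone marrow, and the ES line carried EGFP knocked in under the τ promoter, so a single line of each kind was examined. There were 2 co-culture arrays without growth factors (-GFs), 3 with FGF2 and 2 with BMP4. PA6 cells alone were measured on 3 arrays under each of the same conditions. Human recombinant FGF2 (20 ng/ml) or mouse BMP4 (10 ng/ml in the labels, a lower dose in the methods of the study) was present for the first 3 days and then withdrawn, so the arrays record cells 4 days after the factor had been removed. The labels call the cultures biological replicates of separate wells, and p-values measure the spread between these arrays.

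Between 37.3% and 47.0% of probes were detected on an array, and correlations between arrays within a group ran from 0.973 to 0.986. Levels are log2 normalized intensities of single probes, on which the limit of detection lay between 6.25 and 6.96, and levels of different probes are not compared. Stromal and mesenchymal marker genes were measured in all groups (8 of 8 tested), while the 3 neural markers tested of 8 (DCX, HES5 and NES) were undetected on all 9 PA6 arrays. A gene was tested if its probe was detected on every array of at least 1 group, which held for 14829 genes and for 7 of the 10 members. It was called changed at an adjusted p under 0.1 (limma, Benjamini-Hochberg over all genes tested) with a log2 fold change exceeding 1 in either direction.

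The 3 members that could not be tested were FGF2, FGF5 and FGFR4. Endogenous FGF2, the mouse gene for the factor that was added, was detected on 1 of 16 arrays, a PA6 array with BMP4, and its log2 level ranged from 5.46 to 6.97. FGF5, a ligand of the post-implantation epiblast, was detected on 1 of 16 arrays, a co-culture array without growth factors, with levels from 5.34 to 6.68. FGFR4 was detected on 0 of 16 arrays (5.35 to 6.13). Of the 17 probes, 10 passed the filter, since FGFR2 had 4 probes of which 2 passed, FGF10 had 3 of which 2 passed, FGFR3 had 2 of which 1 passed, and both FGFR1 probes passed. Where several probes of a gene passed, the brightest on average stood for the gene, and the other is named by its identifier. The probes that did not pass were FGF10 probe ILMN_1213777, detected on 2 of 16 arrays (5.43 to 7.43), and FGFR2 probes ILMN_1229167 (5.66 to 7.33) and ILMN_2646078 (5.40 to 7.03), each also detected on 2 of 16, besides an FGFR3 probe.

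In ES/PA6 co-cultures FGF2 lowered the receptors FGFR2 and FGFR3, and BMP4 lowered FGFR3, whereas neither FGFR2 probe was called with BMP4. FGFR3 was detected in co-cultures only, on 5 of 7 co-culture arrays and on 0 of 9 PA6 arrays. The mesenchymal-side ligands FGF7 and FGF10 and the receptor FGFR1 were lower in co-cultures than in PA6 cells alone, whereas FGF8 and FGF15 were detected on 6 and 7 of the 7 co-culture arrays and undetected in PA6 cells. In PA6 mono-cultures no member passed the threshold with either factor.

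FGFR3, the receptor that in development marks neural progenitors and cartilage, gave log2 levels of 8.50 and 8.54 on the co-culture arrays without growth factors. With FGF2 the levels were 6.06, 6.24 and 6.96, and with BMP4 they were 6.41 and 7.14. Both -GFs arrays stood above every array with a factor, and the groups did not overlap. After FGF2 the probe was detected on 1 of 3 arrays, so the FGF2 mean lay at the limit of detection. The difference in log2 level was -2.10 ± 0.33 (SE, adjusted p = 0.0164). With BMP4, where both arrays remained detected, the change was -1.74 ± 0.36 (SE, adjusted p = 0.0641). Both comparisons used the same 2 -GFs arrays and are not independent of each other. FGFR3 was also among the genes that the study picked from its arrays for PCR, and it reports lower FGFR3 with FGF2 at day 7. The choice of the gene does not stand apart from these data. The second FGFR3 probe was detected on 0 of 16 arrays.

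FGFR2, which in its epithelial splice form is the receptor of FGF7 and FGF10, had 2 informative probes. Probe ILMN_1225071 gave 12.65 and 12.38 without growth factors, 11.21, 10.50 and 11.23 with FGF2, and 12.56 and 12.81 with BMP4. All FGF2 arrays lay below all other co-culture arrays, while the -GFs and BMP4 arrays overlapped. The change with FGF2 was -1.54 ± 0.27 (SE, adjusted p = 0.0223) and the difference with BMP4 was 0.17 ± 0.29 (SE, adjusted p = 0.879). Probe ILMN_2609887 gave 8.32 and 8.19 without growth factors, 7.03, 6.45 and 7.10 with FGF2, and 8.90 and 8.91 with BMP4. It showed the same separation of the FGF2 arrays, of which replicate 2 was undetected, with a change of -1.40 ± 0.24 (SE, adjusted p over probes = 0.0223), and its BMP4 arrays lay above its -GFs arrays by 0.65 ± 0.26 (SE, adjusted p over probes = 0.320). The positions of the probes in the transcript were not given in the sources used here, so the splice forms they read are unknown.

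**Figure D1:**
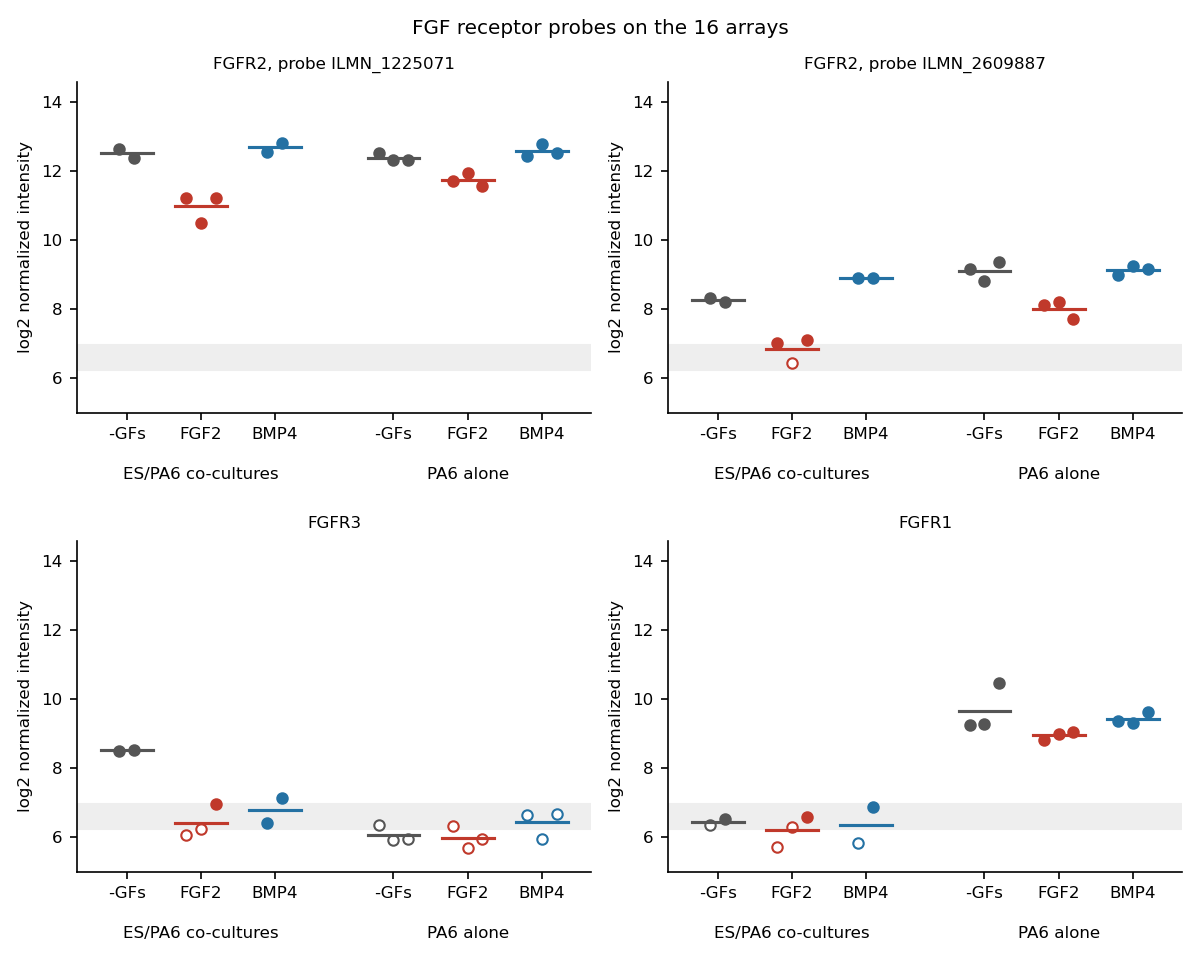
Log2 normalized intensity (vertical axis) of 4 FGF receptor probes on each of the 16 arrays, by growth factor and kind of culture (horizontal axis). Filled points are arrays with a detection p-value under 0.05 and open points are undetected, lines are group means, and the grey band is the range of the detection limit. Both FGFR2 probes are lowest in the FGF2 groups, FGFR3 is high on the 2 co-culture -GFs arrays, and FGFR1 is high in PA6 cells.

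The share of members called with FGF2 in co-cultures was 2 of 7, both lower, where 7.42% of all genes were called, 5.07% higher and 2.35% lower. The median change of the 7 members was -0.95 on the log2 scale and that of all genes -0.06. With BMP4 it was 1 of 7, with 3.75% of all genes called (2.28% higher and 1.47% lower), a median of -0.16 for the members and 0.00 for all genes. Set directly against each other, BMP4 gave a higher FGFR2 level than FGF2 by 1.71 ± 0.27 (SE, adjusted p = 0.0633) on probe ILMN_1225071 and by 2.05 ± 0.24 (SE, adjusted p over probes = 0.0210) on probe ILMN_2609887. This was the only member called of 7, beside 1.44% of all genes. FGFR3 differed by 0.36 ± 0.33 (SE, adjusted p = 0.695) between the factors, and its FGF2 and BMP4 arrays overlapped.

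The falls of both receptors held within runs of columns of the deposited table, which hold 5 or 6 arrays each. FGFR2 was lower with FGF2 by 1.44 in the first run and by 1.15 in the third on the log2 scale, the only runs with a co-culture -GFs array, and FGFR3 by 2.44 and 1.57. FGFR3 was lower with BMP4 by 1.39 in the third run. Without co-culture -GFs replicate 1, which leaves a single -GFs array assumed to vary like the others, FGFR2 and FGFR3 differed by -1.40 and -2.12 with FGF2 and neither was called (adjusted p = 0.136 and 0.104 in limma). The BMP4 call of FGFR3 was lost without co-culture -GFs replicate 1, -GFs replicate 2 or BMP4 replicate 1, at -1.76, -1.72 and -1.38. The higher FGFR2 level with BMP4 than with FGF2 lost its call without any of the 3 FGF2 or 2 BMP4 arrays (1.47 to 1.83) and with the replicate number as a block (1.83 ± 0.28, adjusted p = 0.146). With the run as a block it was called on probe ILMN_1225071 (1.85 ± 0.19, adjusted p over probes = 0.0472) and on probe ILMN_2609887 (2.14 ± 0.21, adjusted p over probes = 0.0424).

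Markers of other cell types moved with these receptors. The summed normalized intensity of the 3 neural markers tested (with SOX1, PAX6, TUBB3, MAP2 and NEUROD1 untested) was 11604 to 15312 on the -GFs arrays of the co-cultures, 5697 to 6544 with FGF2 and 5374 to 6188 with BMP4. In each case 2 of the 3 were called lower, but not the same genes. With FGF2 they were HES5 and NES, while DCX differed by -0.19 ± 0.32 (SE, adjusted p = 0.783). With BMP4 they were HES5 and DCX, while NES differed by -0.40 ± 0.25 (SE, adjusted p = 0.546). The 7 pluripotency markers tested of 8 summed to 9132 to 9342 without growth factors, 48297 to 59742 with FGF2 (7 of 7 higher) and 17484 to 33155 with BMP4 (4 of 7 higher). Of the surface ectoderm markers (6 tested of 7) 4 were called higher with BMP4 and 0 with FGF2, their sum going from 2080 to 2529 without growth factors to 18476 to 32609, against 1385 to 2018 with FGF2. Endothelial markers (3 tested of 7, with CDH5, KDR, TIE1 and ICAM2 untested) summed to 256 to 351, 1838 to 3329 and 1523 to 1607 in the same order. Stromal markers had 0 of 8 called with either factor. The part of these cell types in the receptor changes was not tested, and in such bulk RNA fewer cells of a type cannot be told apart from less RNA per cell.

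As a description of the pattern over the 7 co-culture arrays, the genes whose levels correlated most with FGFR2 were 2610044O15RIK (r = 0.991), FZD10 (0.986), a WNT receptor, and A730086L23RIK (0.985). For FGFR3 they were ZFP579 (0.992), C030003H22RIK (0.990) and BC038881 (0.989). These are the highest of 14829 genes and share the arrays and their groups.

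The sequences before the annotated starts of FGFR2 and FGFR3 are shown because both were called lower with FGF2 in co-cultures. With BMP4 only FGFR3 was called. RefSeq promoter windows (GRCm38.p6) matched 7 of the 10 members with 8 entries, 2 of them for Fgfr3 (Fgf8, Fgf15 and Fgfr1 have no entry). The 250 bases before each start are given 5′ to 3′ on the strand of the gene. Capitals mark the GC box (GGGCGG or its reverse complement CCGCCC), and a TATA box (TATAAA or TTTATA) and an ETS-type core (CCGGAA or TTCCGG) were searched in the same way.
Fgfr2 (chr7:130266809-130267058, minus strand): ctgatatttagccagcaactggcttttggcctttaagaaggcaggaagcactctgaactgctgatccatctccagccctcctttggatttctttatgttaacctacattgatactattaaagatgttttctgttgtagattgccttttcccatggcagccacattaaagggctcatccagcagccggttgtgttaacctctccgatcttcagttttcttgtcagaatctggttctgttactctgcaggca
Fgfr3, first entry (chr5:33721474-33721723, plus strand): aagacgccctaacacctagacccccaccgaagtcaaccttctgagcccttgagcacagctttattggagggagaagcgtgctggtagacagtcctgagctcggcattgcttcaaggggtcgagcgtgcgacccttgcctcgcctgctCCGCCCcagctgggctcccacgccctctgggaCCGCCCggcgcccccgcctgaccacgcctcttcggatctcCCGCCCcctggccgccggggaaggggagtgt
Fgfr3, second entry (chr5:33722056-33722305, plus strand): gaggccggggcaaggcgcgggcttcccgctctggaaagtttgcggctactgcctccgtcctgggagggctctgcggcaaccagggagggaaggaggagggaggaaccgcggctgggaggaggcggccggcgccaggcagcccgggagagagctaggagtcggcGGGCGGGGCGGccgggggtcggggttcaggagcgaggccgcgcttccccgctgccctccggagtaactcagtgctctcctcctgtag

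The Fgfr2 window held 0 GC boxes, 2 CpG and 44% G and C bases. The Fgfr3 windows held 3 and 2 GC boxes, the latter pair overlapping, with 19 and 24 CpG and 66.8% and 72.8% G and C. Neither a TATA box nor an ETS-type core was present in the 3 windows. Of 32841 such windows of all genes, 32.7% held a GC box, 12.4% a TATA box and 12% an ETS-type core, with medians of 6 CpG and 52.4% G and C. These letters describe the windows alone, and which start is used in these cultures was not measured.

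Among the ligands none passed the threshold with FGF2 or BMP4 in co-cultures. FGF7, the keratinocyte growth factor of stroma, gave 9.56 and 10.02 without growth factors, 11.08, 10.06 and 11.31 with FGF2, and 10.03 and 10.87 with BMP4. Both -GFs arrays lay below all others, although FGF2 replicate 2 and BMP4 replicate 1 exceeded the higher of them by little. The difference was 1.03 ± 0.42 with FGF2 (SE, adjusted p = 0.207) and 0.66 ± 0.46 with BMP4 (SE, adjusted p = 0.601). Within runs of columns the FGF2 difference was 1.53 and 1.30, and FGF7 was called with the run as a block (1.35 ± 0.19, adjusted p = 0.0310), with all 16 arrays in one fit (1.03 ± 0.31, adjusted p = 0.0445) and without co-culture FGF2 replicate 2 (1.41 ± 0.33, adjusted p = 0.0898).

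FGF8 and FGF15, ligands of early neural and midbrain-hindbrain patterning, were the member ligands detected in co-cultures and undetected in PA6 cells. Among tested FGF ligands outside the members, FGF4, FGF13 and FGF17 were also undetected on all PA6 arrays, while FGF18 and FGF22 were detected on some or all of them. FGF8 gave 8.50 and 7.33 without growth factors, 7.50, 6.30 and 6.76 with FGF2, and 8.30 and 6.79 with BMP4. Its groups overlapped, with differences of -1.06 ± 0.57 (SE, adjusted p = 0.320) for FGF2 and -0.37 ± 0.62 (SE, adjusted p = 0.874) for BMP4. With the replicate number as a block FGF8 was called with FGF2 at -1.02 ± 0.19 (adjusted p = 0.0757). With the run as a block it was not, at -1.04 ± 0.45 (SE, adjusted p over probes = 0.250). FGF15 gave 10.14 and 9.34 without growth factors, 9.72, 8.49 and 8.15 with FGF2, and 9.65 and 8.28 with BMP4. The first array of each group was its highest for both genes, and no group separated from another. FGF15 differed by -0.95 ± 0.57 (SE, adjusted p = 0.380) with FGF2 and by -0.77 ± 0.63 (SE, adjusted p = 0.670) with BMP4.

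FGF10 and FGFR1 lay close to the limit of detection in co-cultures, and neither was called on any probe. FGF10 ranged from 6.41 to 7.26 over the 7 arrays, and differed by -0.22 ± 0.26 with FGF2 and by -0.16 ± 0.29 with BMP4 (SE). Its probe ILMN_2736497 gave 5.82 and 6.71 without growth factors, 7.71, 6.43 and 6.45 with FGF2, and 6.58 and 6.82 with BMP4. Its groups overlapped, and its differences had the other sign, at 0.59 ± 0.44 (SE, adjusted p over probes = 0.496) and 0.43 ± 0.48 (SE, adjusted p over probes = 0.792).

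FGFR1, the main FGF receptor of mesenchyme, ranged from 5.73 to 6.89 and was detected on 1 array of each co-culture group. It differed by -0.23 ± 0.36 with FGF2 and by -0.07 ± 0.40 with BMP4 (SE). Probe ILMN_2675581 gave 7.39 and 5.71 without growth factors, 5.72, 8.12 and 5.87 with FGF2, and 5.44 and 5.52 with BMP4, so that 1 -GFs array and 1 FGF2 array stood apart from the rest. On it the differences were 0.02 ± 0.77 (SE, adjusted p over probes = 0.993) with FGF2 and -1.07 ± 0.84 (SE, adjusted p over probes = 0.673) with BMP4.

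**Figure D2:**
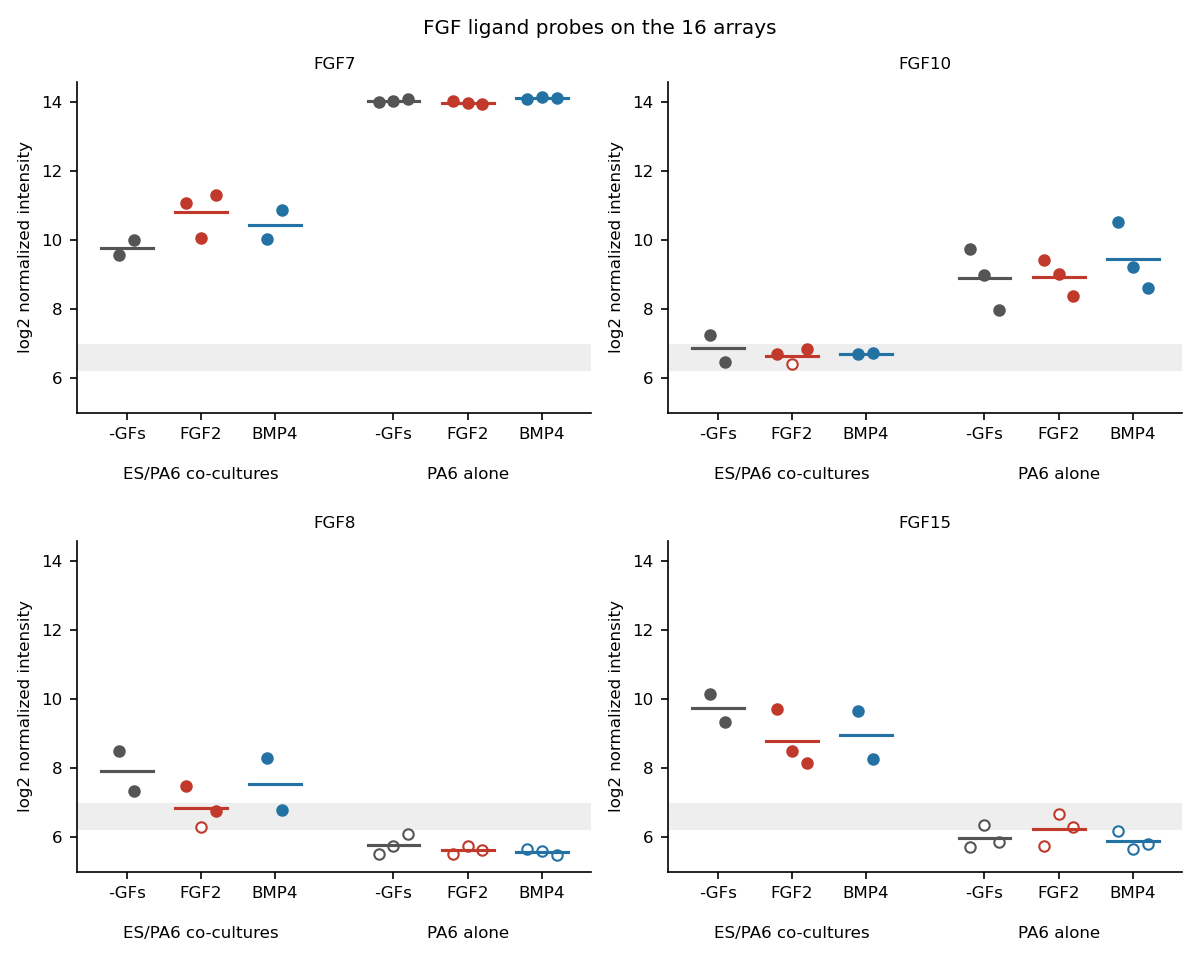
Log2 normalized intensity (vertical axis) of 4 FGF ligand probes on each of the 16 arrays, by growth factor and kind of culture (horizontal axis). Symbols, lines and band are as for the receptors. FGF7 and FGF10 are higher in PA6 cells alone, and FGF8 and FGF15 are detected in co-cultures (FGF8 on 6 of 7 arrays) and undetected on all 9 PA6 arrays.

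In PA6 mono-cultures 0 of 7 members were called with FGF2, beside 0.0270% of all genes, and 0 of 7 with BMP4, beside 0% of all genes. At an unadjusted p under 0.05 limma gave 1536 and 1334 of 14829 genes, among them FGFR1 and FGFR2 with FGF2 and no member with BMP4. FGFR2 probe ILMN_1225071 gave 12.53, 12.33 and 12.31 without growth factors, 11.72, 11.94 and 11.58 with FGF2, and 12.44, 12.79 and 12.53 with BMP4. The FGF2 arrays lay below all 6 others without overlap, yet the difference of -0.64 ± 0.15 (SE) did not pass (adjusted p = 0.219). It had the same sign in each of the 3 runs (-0.81, -0.39 and -0.73). Probe ILMN_2609887 gave 9.17, 8.83 and 9.35, then 8.11, 8.20 and 7.70 with FGF2, and 8.98, 9.26 and 9.15 with BMP4. It separated the same arrays at -1.11 ± 0.19 (SE, adjusted p over probes = 0.150). FGFR1 gave 9.26, 9.28 and 10.47 without growth factors against 8.81, 9.0 and 9.06 with FGF2, a difference of -0.71 ± 0.30 (SE, adjusted p = 0.464) that was -0.31 without PA6 -GFs replicate 3. With BMP4 its levels were 9.37, 9.32 and 9.62. Probe ILMN_2675581 gave 7.93, 8.04 and 8.74 without growth factors, 7.60, 6.82 and 7.43 with FGF2, and 6.91, 7.28 and 8.54 with BMP4. It again separated the FGF2 arrays from the -GFs arrays, at -0.95 ± 0.42 (SE, adjusted p over probes = 0.478), while its BMP4 arrays overlapped them at -0.66 ± 0.42 (SE, adjusted p over probes = 0.672).

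FGF7 was high and even in PA6 cells, at 14.00 to 14.08 without growth factors, 13.94 to 14.03 with FGF2 and 14.10 to 14.14 with BMP4. The BMP4 arrays lay above the -GFs arrays without overlap, by 0.08 ± 0.10 (SE, adjusted p = 0.845). FGF10 varied more, at 9.75, 9.0 and 7.99 without growth factors, 9.42, 9.01 and 8.40 with FGF2, and 10.53, 9.22 and 8.60 with BMP4. In each group the array of the first run was the highest and that of the third the lowest, on both FGF10 probes that passed. Within runs BMP4 exceeded -GFs by 0.79, 0.22 and 0.62, and the pooled difference was 0.54 ± 0.56 (SE, adjusted p = 0.797). Probe ILMN_2736497 gave 9.45, 8.96 and 7.13 without growth factors, 9.48, 9.12 and 8.31 with FGF2, and 10.75, 9.64 and 8.84 with BMP4. Its BMP4 difference was 1.23 ± 0.65 (SE, adjusted p over probes = 0.611), over the required size but not called, also with the run as a block (1.23 ± 0.26, adjusted p over probes = 0.351). Adipocyte markers (4 tested of 6) summed to 2285 to 18092 in PA6 cells without growth factors and to 12967 to 119195 with BMP4, with 0 of 4 called, and their part was not tested.

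**Figure D3:**
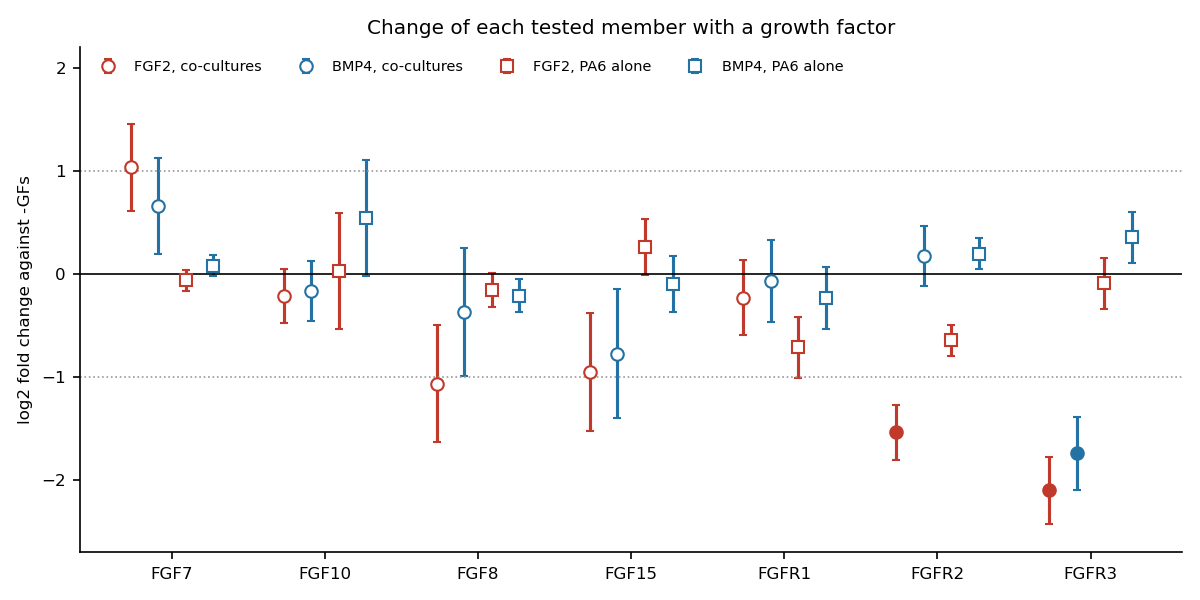
Log2 fold change against -GFs (vertical axis, ± SE) of the 7 tested members with FGF2 or BMP4 in co-cultures (circles) and in PA6 cells alone (squares). Filled symbols were called and dotted lines mark a log2 fold change of 1 in size. Only FGFR2 with FGF2 and FGFR3 with both factors in co-cultures are filled.

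Whether a factor acted differently in both kinds of culture was tested as an interaction over all 16 arrays. For FGF2, 1 of 7 members was called beside 7.90% of all genes, namely FGFR3 with a difference of -2.01 ± 0.42 (SE, adjusted p = 0.0127). For BMP4 it was again FGFR3, at -2.09 ± 0.44 (SE, adjusted p = 0.0224), beside 4.23% of all genes. FGFR3 was undetected on all PA6 arrays (5.70 to 6.69), so a change there could not be measured. For FGFR2 the FGF2 effect differed by -0.89 ± 0.29 (SE, adjusted p = 0.0903) on probe ILMN_1225071, which is under the required size and was called without co-culture FGF2 replicate 1 or 3, and by -0.29 ± 0.30 (SE, adjusted p over probes = 0.638) on probe ILMN_2609887. The FGF7 effect differed by 1.10 ± 0.42 (SE, adjusted p = 0.141), and by 1.47 without co-culture FGF2 replicate 2, where it was called (adjusted p = 0.0158).

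Co-cultures were also compared with PA6 cells alone. In such bulk RNA the stromal share of a gene cannot be separated from that of ES-derived cells. Without growth factors 6 of 7 members were called, where 44.1% of all genes were (22.3% higher and 21.8% lower). FGF7 was lower in co-cultures by -4.26 ± 0.31, FGFR1 by -3.23 ± 0.37 and FGF10 by -2.04 ± 0.54 (log2, SE, adjusted p = 7.49e-08, 4.58e-06 and 0.00465). In the same comparison 6 of 8 stromal markers were lower, with a median of -2.56, and their summed intensity was 59709 to 63143 in co-cultures and 175841 to 202468 in PA6 cells. FGFR2 differed by 0.13 ± 0.22 (SE, adjusted p = 0.638), and its groups overlapped. On probe ILMN_2609887 the difference was -0.86 ± 0.22 (SE, adjusted p over probes = 0.00412), under the required size, so the probes differed on this point.

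FGF8, FGF15 and FGFR3 were undetected on every PA6 array without growth factors. Their levels there are replaced, for a lower bound, by the dimmest detected signal of each array or the probe's own if higher. The adjusted p beside a bound is limma's for the difference before this replacement, and the bound itself was not tested. FGF15 was at least 8.28-fold higher in co-cultures (adjusted p = 1.27e-05), FGFR3 at least 3.55-fold (adjusted p = 1.39e-05) and FGF8 at least 2.34-fold (adjusted p = 0.000703). The PA6 levels were 5.71 to 6.37 for FGF15, 5.92 to 6.37 for FGFR3 and 5.51 to 6.11 for FGF8, and no co-culture array without growth factors fell among them. In the same comparison 3 of 3 neural markers tested were called higher in co-cultures, with a median of 6.17. Of 7 pluripotency markers tested 6 were called higher and 1 lower, with a median of 3.98. The part of these cell types was not tested.

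With FGF2, 5 of 7 members were called beside 46.4% of all genes, and with BMP4, 5 of 7 beside 42.4%. FGF7 (-3.16 and -3.68), FGFR1 (-2.75 and -3.07) and FGF10 (-2.29 and -2.75) were lower in co-cultures with FGF2 and with BMP4, and FGF15 was at least 3.96-fold and 4.33-fold higher. FGF8 was at least 1.03-fold and 1.62-fold higher, and its call with FGF2 was lost without co-culture FGF2 replicate 1 (0.90 on the log2 scale). FGFR3 was no longer called, at 0.43 ± 0.28 (SE, adjusted p = 0.188) with FGF2 and 0.35 ± 0.31 (SE, adjusted p = 0.358) with BMP4, and its co-culture and PA6 arrays overlapped. With FGF2 FGFR2 differed by -0.77 ± 0.20 (SE, adjusted p = 0.00323), without overlap but under the required size, and was called lower at -1.15 ± 0.20 (SE, adjusted p over probes = 0.000166) on probe ILMN_2609887. The second FGFR1 probe was called lower in co-cultures without growth factors (-1.68 ± 0.68, SE, adjusted p over probes = 0.0444) but not with FGF2 (-0.71 ± 0.61, SE, adjusted p over probes = 0.315), where co-culture FGF2 replicate 2 reached 8.12, and was called lower with BMP4 (-2.10 ± 0.68, SE, adjusted p over probes = 0.0159). This probe was undetected on both co-culture arrays with BMP4, so the size of that last difference is not a measured one. FGF10 probe ILMN_2736497 was called lower in all 3 comparisons (-2.24, -2.11 and -3.04).

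Of 16 other FGF ligands, 5 were tested, of which 2 were called with FGF2 and 1 with BMP4 in co-cultures, beside 7.42% and 3.75% of all genes. FGF4, the autocrine FGF of ES cells and a target of the pluripotency factors, was 6.37 ± 0.37 (SD, n = 2, detected on 1 array) without growth factors and 8.76 ± 0.09 (SD, n = 3) with FGF2, a rise of 2.39 ± 0.28 (SE, adjusted p = 0.00771). FGF17, of the FGF8 subfamily, rose by 1.69 ± 0.47 (SE, adjusted p = 0.0845) with FGF2 but lost its call without either -GFs array or without FGF2 replicate 1 or 3 (1.38 to 2.13 over the arrays left out), with the replicate number as a block (1.56, adjusted p = 0.128) and with the run as a block (1.83, adjusted p = 0.126). With BMP4 FGF4 was at 7.26 ± 0.55 (SD, n = 2), which exceeded -GFs by 0.88 ± 0.30 (SE, adjusted p = 0.228). The intracellular FGF13 fell by 1.15 ± 0.22 on the log2 scale (SE, adjusted p = 0.0509), a call lost without -GFs replicate 2 or either BMP4 array and with the replicate number as a block (adjusted p = 0.119). Pluripotency markers rose on the same arrays as FGF4, as given above, and their part was not tested.

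Of 9 feedback inhibitors and targets tested of 15 listed, 1 was called with FGF2 and 0 with BMP4, beside 7.42% and 3.75% of all genes. The count of 1 of 9 is near the share of all genes called with FGF2. ETV5, a transcription factor switched on by ERK signalling, was at 9.57 ± 0.05 (SD, n = 2) without growth factors and 11.37 ± 0.53 (SD, n = 3) with FGF2, a rise of 1.80 ± 0.39 (SE, adjusted p = 0.0428) that lost its call without either -GFs array or FGF2 replicate 2 (1.56 to 2.08). The phosphatase DUSP6 (0.49 ± 0.25, adjusted p = 0.304), ETV4 (0.83 ± 0.35, adjusted p = 0.213) and SPRY4 (0.36 ± 0.26, adjusted p = 0.483) did not pass with FGF2 (SE, limma). The list's median change was 0.35 with FGF2 and 0.29 with BMP4, against -0.06 and 0.00 over all genes. Compared with PA6 cells without growth factors, where 44.1% of all genes were called, DUSP4, DUSP6, ETV1, ETV4 and ETV5 were higher in co-cultures and EGR1 was lower. The other members of the list, SPRY4 (0.13 ± 0.46), SPRED1 (-0.73 ± 0.18) and IL17RD (0.27 ± 0.17), were not called there (log2, SE).

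Of 16 co-receptors and binding proteins tested of 19, KLB, the co-receptor of endocrine FGFs, was called higher with FGF2 and GPC6, a glypican, was called lower. These are 2 of 16, beside 7.42% of all genes, and 2 of 16 were called with BMP4, beside 3.75%. KLB was undetected on both -GFs arrays and reached 6.63 ± 0.16 (SD, n = 3) under FGF2, which puts it at least 1.07-fold higher. That bound was not tested, and limma's adjusted p of 0.0418 is for the log2 difference before it (1.09). KLB passed the filter only through the FGF2 co-cultures, the group where it was highest. GPC6 fell by 1.12 ± 0.30 on the log2 scale (SE, adjusted p = 0.0795). With BMP4 FGFBP1, a carrier that releases FGFs from the matrix and is known from epithelium, was at least 13.7-fold higher (adjusted p = 0.0204 for the difference before the bound), from undetected on both -GFs arrays to 10.31 ± 0.60 (SD, n = 2). It rose on the arrays on which surface ectoderm markers rose, and their part was not tested. GPC4 rose by 1.73 ± 0.30 (SE, adjusted p = 0.0410) with BMP4. KLB lost its call without either -GFs array or FGF2 replicate 2 and with the run as a block (0.97). GPC6 lost it without either -GFs array or FGF2 replicate 1 or 2, with the replicate number as a block (-1.31, adjusted p = 0.101) and with the run as a block (-0.94). GPC4 lost it without either -GFs array and with the replicate number as a block (adjusted p = 0.116), and FGFBP1 without BMP4 replicate 1.

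Of 14 adaptors and RAS-ERK genes tested of 19, the docking protein GAB1 rose with FGF2 by 1.07 ± 0.23 (SE, adjusted p = 0.0418) and lost its call without either -GFs array or FGF2 replicate 1 or 2 (0.90 to 1.22). This is 1 of 14, near the 7.42% of all genes called, and 0 of the 14 were called with BMP4, beside 3.75% of all genes. Of 10 heparan sulphate modifying enzymes 0 were called with FGF2 or BMP4 in co-cultures, beside 7.42% and 3.75% of all genes. The list's median there was -0.22 with FGF2 and -0.08 with BMP4. In PA6 mono-cultures 0 genes of these 5 lists were called with FGF2 or BMP4, beside 0.0270% and 0% of all genes.

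**Figure D4:**
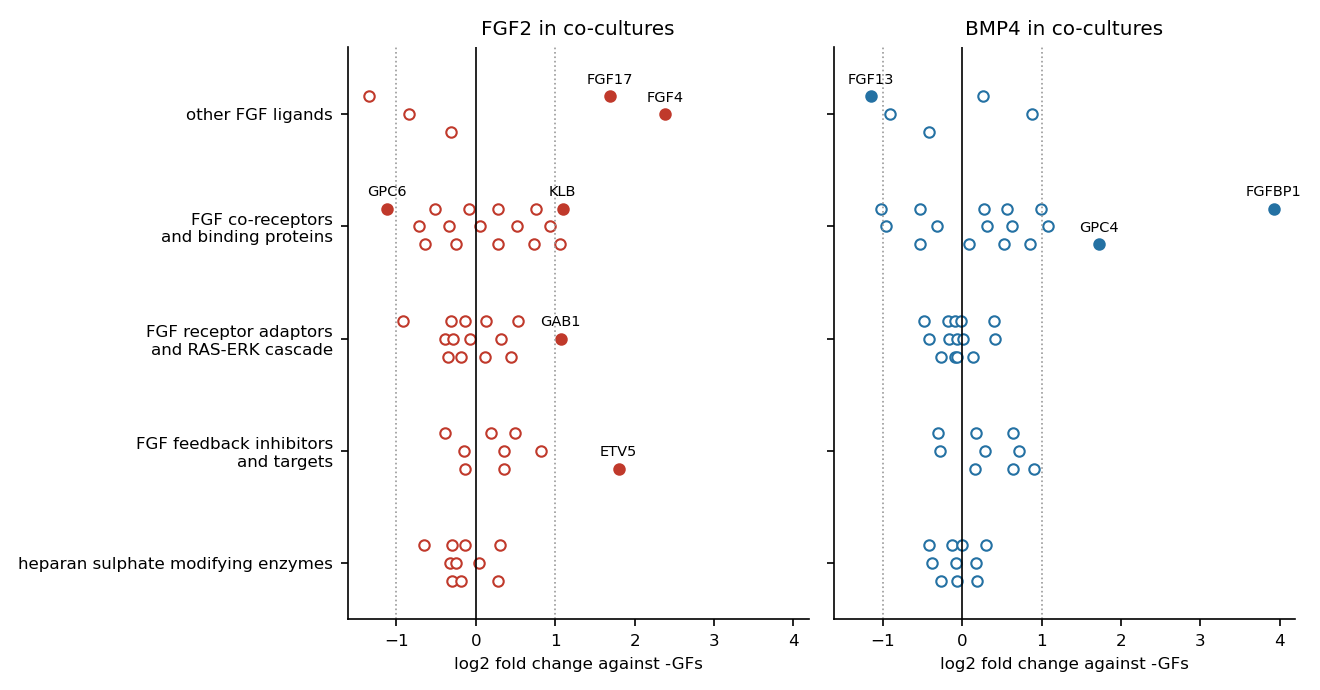
Log2 fold change against -GFs (horizontal axis) of the tested genes of 5 lists of the FGF pathway in co-cultures with FGF2 (left) and BMP4 (right), 1 point per gene spread vertically for legibility. Filled points with names were called and dotted lines mark a log2 fold change of 1 in size. With FGF2 FGF4, FGF17, KLB, GAB1 and ETV5 were higher and GPC6 lower, and with BMP4 FGFBP1 and GPC4 were higher and FGF13 lower.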

How the data were processed

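Illumina MouseWG-6 v2.0 arrays of 16 cultures in 6 groups were read from the non-normalized table, in which the authors deposited raw probe intensities and the detection p-values that GenomeStudio computes against negative controls (version 2011.01 per the submitters' notes). The authors' cubic spline normalized values were not used here. Intensities were corrected with normexp inferred from detection p-values (offset 16), quantile normalized over all arrays and log2 transformed in limma 3.58.1 (R 4.3.3), which shrinks differences close to background.

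A probe was kept if some group had it detected (p-value under 0.05) throughout its arrays, and for each gene the probe with the highest average stood for it. Co-culture arrays and PA6 arrays were fitted separately for the factors and together for the comparisons between cultures, without a block, using lmFit and eBayes. P-values were adjusted by Benjamini-Hochberg over all 14829 genes, or over all 20880 probes for a gene's other probe, and limma's moderated test gives every adjusted p printed. Calls required an adjusted p under 0.1 and a log2 fold change above 1 in size. The procedure was tested on simulated data. The number of arrays limits the precision, and probes read a transcript at unknown positions.

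All members were described, those probes that passed by their values and the others by detection and range. Of the pathway lists, genes called with a factor in co-cultures were named, together with some others chosen after their values were seen (DUSP6, ETV4, SPRY4 and the targets that differed between cultures). Likeness was given as the 3 genes with the highest correlation to a member called within co-cultures. The members and lists were chosen with earlier results of these data known. A lower bound for a gene undetected in a group used, on each array, the higher of the dimmest detected signal and the probe's own. Bounds were not tested, and an adjusted p beside one is of the difference before this replacement. Groups came from the sample labels. Alternatives covered background correction, scaling, filter, thresholds, variance prior, probe choice, blocks by replicate number or run of columns, 1 fit over all arrays, and leaving out each array.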

Additional observations from a re-analysis of the deposited data

Results flagged for a closer look

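FGFR3 was marked because the effect of a growth factor differed between the kinds of culture in a test of the difference itself. The FGF2 effect was lower in co-cultures than in PA6 cells by -2.01 ± 0.42 (log2, SE, limma adjusted p = 0.0127) and the BMP4 effect by -2.09 ± 0.44 (adjusted p = 0.0224). FGFR3 was undetected on all 9 PA6 arrays, so the PA6 side of both differences holds no measured level. Both share the -GFs arrays. The FGF2 difference kept its call under 26 of 26 alternatives and the BMP4 difference under 25 of 26, the exception being without co-culture BMP4 replicate 1 (-1.73, adjusted p = 0.114).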

How the results depend on the processing

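Of 686 alternatives for 28 single-member results, 655 kept direction and side of the threshold, 20 lost a call, 11 gained one and 0 reversed, and of 163 for 9 pathway genes 120 kept both and 0 reversed. Restricting the test to probes detected on all 16 arrays left FGF7 and FGFR2 only, with 1 member called for FGF2 in co-cultures, 0 for BMP4, 0 for BMP4 against FGF2, 1 in each comparison of co-cultures with PA6 cells and 0 for either difference between cultures. Without a filter, or at an adjusted p under 0.05, 0 members were called for BMP4 and 0 for BMP4 against FGF2. For the difference of the FGF2 effect, 2 were called with no minimum fold change (adding FGFR2), with a trended variance prior (adding FGF7) and with the run of columns as a block (adding FGF7). Leaving out single arrays gave 0 to 3 calls for FGF2 in co-cultures (0 without -GFs replicate 1, 3 without FGF2 replicate 2), 0 to 1 for BMP4, 0 to 1 for BMP4 against FGF2, 0 in PA6 cells with either factor, 6 between cultures without growth factors, 4 to 5 with FGF2, 5 with BMP4, 1 to 2 for the FGF2 difference and 0 to 1 for the BMP4 difference. A lone array left in a group was assumed to vary like the others. Over all genes, leaving out arrays gave 395 to 1069 calls for FGF2 (1100 with all) and 102 to 547 for BMP4 (556 with all), and for BMP4 against FGF2 39 to 187 (214 with all). Calls numbered 324 and 32 for FGF2 and BMP4 with probes detected on all arrays, 663 for FGF2 without background correction, 1675 for FGF2 with no minimum fold change, 282 for BMP4 at an adjusted p under 0.05 and 856 for BMP4 with median scaling.

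Samples sharing a replicate number did not deviate together in every pair (r from -0.199 to 0.283 in co-cultures and 0.0697 to 0.199 in PA6 cells), and the labels do not say what a number marks. Samples of the same run of columns had r from 0.0976 to 0.283 in co-cultures, where pairs of different runs had -0.283 to 0.0976, and from 0.0697 to 0.199 in PA6 cells, where run and replicate number coincide and pairs of different runs had -0.136 to -0.0122. Deviations were taken from group means, which ties the values of same and different runs to each other. In the -GFs and BMP4 co-cultures the deviations within a group are exact opposites, so this contrast is not independent evidence. With the replicate number as a block, 0 members were called for BMP4 against FGF2 and 3 for FGF2, which added FGF8, and BMP4 calls over all genes numbered 258. Median scaling moved the median of all genes to -0.21 for FGF2 and 0.29 for BMP4 against FGF2 in co-cultures, and FGFR2 was then called between cultures with FGF2 (-1.09, beside a median of -0.17). FGF8 with FGF2 lost its call between cultures without background correction (0.81) and with an offset of 50 (0.85). Without background correction KLB (0.80), GPC6 (-0.64) and GPC4 (0.99) were not called, and neither were KLB (0.73) and GPC6 (-0.94) with an offset of 50, FGF17 and GPC6 without a filter or at an adjusted p under 0.05, FGF13 at that threshold, or FGF13 (-1.02) and GAB1 (0.81) with median scaling. The causes were not tested. FGFR3 with FGF2, FGFR1 and FGF10 in co-cultures, and FGF8 and FGFR3 in PA6 cells lay near or below detection, which limits their differences.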
